A study of Mus musculus with 6 samples.

Results

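Potassium channel genes were examined in RNA sequencing of dissected mouse dentate neuroepithelium labelled embryonic day 14. The members were chosen by symbol (Kcn, further letters and a number) and selected on level, the mean TPM over the 6 libraries being 1 or more. Of 92 matching symbols, 70 were members, 21 lay below the minimum and 1 was left out by name, among 35274 rows in all and 14518 rows that reached the same mean. TPM, transcript abundance scaled to the same total in every library, is corrected for transcript length, so levels of different genes can be set side by side. The libraries fell into 3 genotypes with 2 libraries each: SOX11f/f, homozygous for a floxed allele of the transcription factor gene Sox11 and called homodeficient in the labels, SOX11f/+, with 1 floxed allele and called haplodeficient, and WT. The labels used here name no Cre driver and no strain. Whether the paired libraries of a genotype stem from different embryos is not stated either, so every p-value rests on library-to-library spread that could be technical.

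Potassium channels let potassium ions leave or enter the cell along their gradient and so set the resting potential and end action potentials. Voltage-gated channels open on depolarization, inward rectifiers pass current best near rest, two-pore channels carry background leak, and calcium-activated channels couple the membrane to intracellular calcium. Auxiliary subunits form no pore and change the gating or trafficking of the pore-forming subunits. In developing brain, progenitors and glia are known for leak and inward rectifier currents, and maturing neurons add voltage-gated ones.

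The members comprised 33 voltage-gated genes, with the electrically silent modifiers of Kcnf, Kcng, Kcns and Kcnv among them, 11 inward rectifiers, 9 two-pore genes, 7 genes counted as calcium-activated and 10 auxiliary genes. The calcium-activated class here includes the sodium-activated Kcnt1 and Kcnt2 and the sperm channel gene Kcnu1, which belong to the same structural family as the large-conductance channel. Because the rule used only the mean over all libraries, the levels below describe the members, and a member high in a single genotype could pass through that genotype. That bears on 5 members with a genotype mean under 1 TPM, which were Kcne2, Kcnk6 and Kcna5 in WT and Kcnh8 and Kcns3 in SOX11f/f libraries. Just inside the minimum were Kcna5 at a mean of 1.03 TPM, Kcns3 at 1.12 and Kcnh8 at 1.13. Just outside it were Kcnk5 at 0.707 TPM, Kcnq1 at 0.633 and Kcnj14 at 0.628.

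What the pore-forming members share beyond their names is the selectivity filter, the short stretch of the pore loop that strips potassium of water. Coding sequences of GENCODE vM21 on GRCm38, the longest of each gene, were translated and searched for threonine or serine, any residue, glycine, then tyrosine, phenylalanine or leucine, then glycine. The pattern was present in 60 of 60 pore-forming members and in 0 of 10 auxiliary ones, against 5.44% of 21504 coding sequences searched. All 9 two-pore members held it at least 2 times, as did 2 of 33 voltage-gated members (Kcna6 and Kcnh2) and 0 of 7 calcium-activated members and 0 of 11 inward rectifiers. The pattern was written for the filter of these channels, so the split between pore-forming and auxiliary members was given in advance. It is also short, so a match is a description and not a proven filter. The stretches below belong to pore-forming members among the 8 with the smallest unadjusted p for SOX11f/f against WT, none of which passed, shown to let the classes be compared. Each runs 5′ to 3′ on the coding strand, with the 5 codons of the pattern in capitals and 15 bases on either side.
Kcns1, voltage-gated, coding bases 1174 to 1188: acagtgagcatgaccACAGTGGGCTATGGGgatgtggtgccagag
Kcna5, voltage-gated, coding bases 1405 to 1419: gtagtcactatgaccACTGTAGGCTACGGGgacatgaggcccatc
Kcnh3, voltage-gated, coding bases 1426 to 1440: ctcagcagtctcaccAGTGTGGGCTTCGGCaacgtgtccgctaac
Kcnj16, inward rectifier, coding bases 391 to 405: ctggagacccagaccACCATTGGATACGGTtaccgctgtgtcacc
Kcnk1, two-pore, loop 1, coding bases 349 to 363: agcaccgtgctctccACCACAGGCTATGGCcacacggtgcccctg
Kcnk1, two-pore, loop 2, coding bases 673 to 687: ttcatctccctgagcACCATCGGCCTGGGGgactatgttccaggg
Kcnu1, calcium-activated, coding bases 826 to 840: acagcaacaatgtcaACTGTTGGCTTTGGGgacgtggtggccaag

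Sox11 (chromosome 12, 27334264 to 27342574 on GRCm38, minus strand) stood at 5.23 and 5.06 TPM in SOX11f/f, 56.1 and 50.1 TPM in SOX11f/+ and 192 and 130 TPM in WT libraries and thus agreed in order with the labels. Between 18722 and 19408 genes per library were above 0 TPM. The depth of each library is unknown, since TPM keeps no read count. Genes of mature brain were high for tissue labelled embryonic day 14, with Gfap, encoding an astrocyte filament, at 268 to 576 TPM and Camk2a, for a kinase of mature synapses, at 121 to 496 TPM. Marker lists of other cells differed between libraries. The summed level of 12 choroid plexus genes was 6785 and 322 TPM in SOX11f/f, 11870 and 57.0 TPM in SOX11f/+ and 59.5 and 38.6 TPM in WT libraries, with replicate 1 of both floxed genotypes standing apart, and none of the 12 was at 0 in both libraries of a genotype. Of 14 multiciliated cell genes, the sums were 497 and 342 TPM in SOX11f/f, 603 and 187 TPM in SOX11f/+ and 25.8 and 23.0 TPM in WT libraries, with Tmem212 at 0 in WT. Of 14 microglia genes they were 515 and 536 TPM in SOX11f/f, 656 and 422 TPM in SOX11f/+ and 267 and 320 TPM in WT libraries. Tissue like this holds many cell types, and fewer cells of a type and less RNA per cell cannot be told apart in any result below.

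The 70 members together reached 1094 and 1150 TPM in SOX11f/f, 958 and 1084 TPM in SOX11f/+ and 1031 and 1062 TPM in WT libraries. Voltage-gated genes made up 37.8% of the summed mean level, auxiliary genes 29.9%, two-pore genes 14.6%, inward rectifiers 9.29% and calcium-activated genes 8.47%. The levels were uneven, with 30 members at a mean of at least 10 TPM, 4 at 50 TPM or more and 19 under 5 TPM. Kcnk1, Kcnip2 and Kcnmb4 were among those at 50 TPM or more, with means over all libraries of 81.2, 75.6 and 68.5 TPM. All 70 members were above 0 TPM in every library, and for 49 of them the highest library was less than 2 times the lowest.

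**Figure D1:**
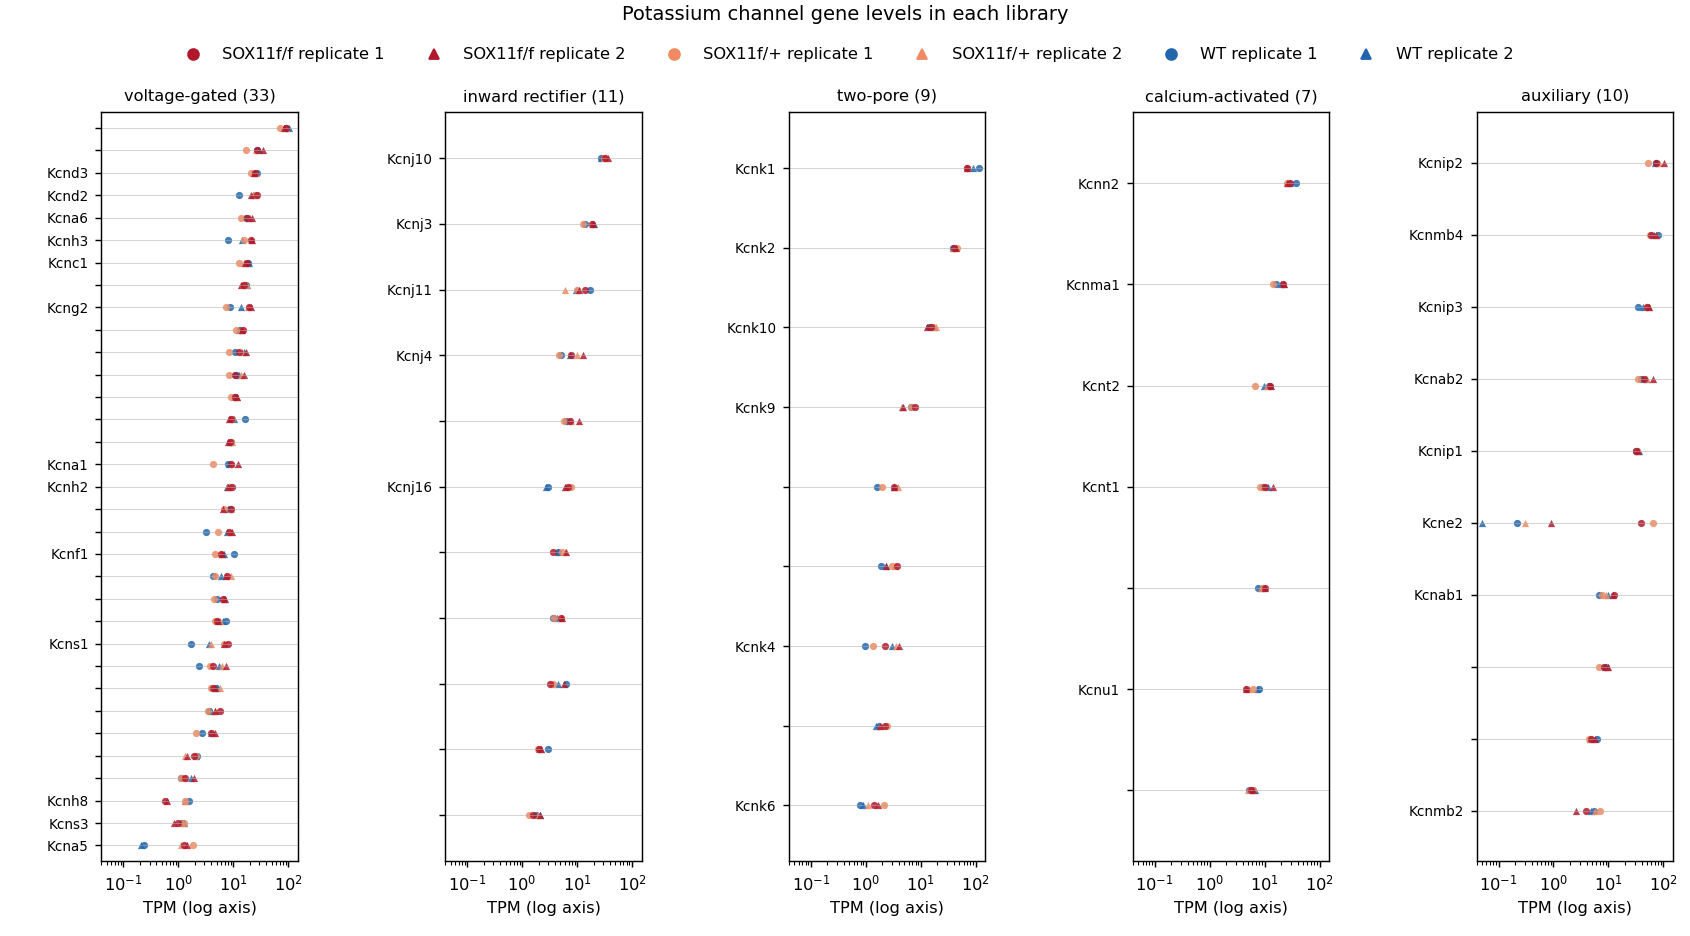
TPM (log axis) of each of the 70 potassium channel genes in the 6 libraries, in a panel per class and ordered by mean level, with the members described in the text labelled. Circles are replicate 1 and triangles replicate 2 of SOX11f/f, SOX11f/+ and WT. Most members lie in a narrow band, while Kcne2 spans from 0.05 to 64.5 TPM.

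Among the more abundant voltage-gated genes, Kcnd3 and Kcnd2 carry A-type currents of dendrites. Kcnd3 was even, between 21.2 and 27.3 TPM in all libraries. Kcnd2 was at 27.4 and 20.9 TPM in SOX11f/f, 25.2 and 25.8 TPM in SOX11f/+ and 12.9 and 22.5 TPM in WT libraries, with WT replicate 1 below all others.

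Kcnh3, of the ELK family of slowly gating forebrain channels (chromosome 15, 99224861 to 99242817 on GRCm38), stood at 20.6 and 22.1 TPM in SOX11f/f, 15.5 and 20.7 TPM in SOX11f/+ and 8.11 and 14.2 TPM in WT libraries. Libraries of both floxed genotypes lay above both WT libraries. The difference did not pass in SOX11f/f (log2 fold change 0.93, SE 0.26, limma adjusted p = 0.16) or in SOX11f/+ libraries (0.68, SE 0.26, limma adjusted p = 0.34). Without WT replicate 1, the lowest Kcnh3 library, these fold changes were 0.56 and 0.31, and without WT replicate 2 the SOX11f/+ one was 1.05. Kcns1, a silent subunit that modifies Kcnb channels (chromosome 2, 164163619 to 164171113), stood at 7.93 and 6.69 TPM in SOX11f/f, 6.89 and 3.98 TPM in SOX11f/+ and 1.70 and 3.57 TPM in WT libraries. It had the largest log2 fold change of the voltage-gated class in SOX11f/f over WT, at 1.24 (SE 0.34, limma adjusted p = 0.15), and the 2 WT libraries themselves differed by more than 2 times. Kcna5, a subunit best known from heart and vessel muscle (chromosome 6, 126532551 to 126535412), was low throughout, at 1.28 and 1.45 TPM in SOX11f/f, 1.87 and 1.12 TPM in SOX11f/+ and 0.24 and 0.21 TPM in WT libraries. Its mean passed the minimum through the floxed genotypes, so its separation from WT is in part given by the rule. Kcna5 did not pass in SOX11f/f (log2 fold change 0.95, SE 0.28, limma adjusted p = 0.17). Without replicate 1 of both floxed genotypes the SOX11f/f log2 fold change of Kcna5 over WT was 1.0001. That step left 1 library in each floxed genotype and took the floxed spread out of the fit, so no call is given. Over the settings that kept all 6 libraries the limma adjusted p of Kcna5 in SOX11f/f ran from 0.13 to 0.20. At so low a level the fold change depends on the pseudocount, and with 0.1 in place of 1 it was 2.17 in SOX11f/f and 2.26 in SOX11f/+ libraries over WT.

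Some voltage-gated members lay lower in the floxed genotypes. Kcnf1, another silent subunit, lies on the chromosome of Sox11 (chromosome 12, 17172100 to 17176888). It had 5.99 and 6.34 TPM in SOX11f/f, 4.59 and 6.02 TPM in SOX11f/+ and 10.3 and 6.92 TPM in WT libraries. Kcnh8, an ELK channel near the minimum, had 0.57 and 0.63 TPM in SOX11f/f, 1.33 and 1.31 TPM in SOX11f/+ and 1.59 and 1.35 TPM in WT libraries. The SOX11f/f libraries lay well below the rest, and the SOX11f/+ libraries just below WT. Neither passed, with limma adjusted p of 0.40 and 0.26 for SOX11f/f against WT. Kcnc1, for a channel subunit that repolarizes fast-spiking neurons, had 18.1 and 16.6 TPM in SOX11f/f, 12.8 and 15.7 TPM in SOX11f/+ and 18.2 and 19.2 TPM in WT libraries, and the SOX11f/+ difference of -0.38 (SE 0.15, limma adjusted p = 0.34) did not pass and was -0.24 without SOX11f/+ replicate 1.

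Inward rectifiers were led by Kcnj10, the main potassium-clearing channel gene of astrocytes (chromosome 1, 172341210 to 172374085). Kcnj10 stood at 32.0 and 37.1 TPM in SOX11f/f, 30.3 and 30.6 TPM in SOX11f/+ and 27.1 and 27.8 TPM in WT libraries. The libraries were ordered by genotype without overlap, but the SOX11f/f difference was small and did not pass (log2 fold change 0.32, SE 0.12, limma adjusted p = 0.24). Kcnj16, whose product pairs with that of Kcnj10 in glia (chromosome 11, 110968033 to 111027968), stood at 6.76 and 5.97 TPM in SOX11f/f, 7.73 and 6.26 TPM in SOX11f/+ and 2.95 and 2.78 TPM in WT libraries. All floxed libraries were at least 2 times as high as either WT library, and in both comparisons with WT, which share the WT libraries, Kcnj16 had the smallest unadjusted p of all 70 members. It did not pass in SOX11f/f (log2 fold change 0.93, SE 0.20, limma adjusted p = 0.11) or SOX11f/+ libraries (1.04, SE 0.20, limma adjusted p = 0.18). Over the settings that kept all libraries, its limma adjusted p ran from 0.069 to 0.21 in SOX11f/f and from 0.11 to 0.37 in SOX11f/+. Beside these genes, the summed level of 13 astrocyte markers was 3421 and 3979 TPM in SOX11f/f, 3339 and 3028 TPM in SOX11f/+ and 1965 and 2197 TPM in WT libraries, with none of them at 0 in both libraries of a genotype. Apoe, which microglia also express, gave the largest share, and the other 12 summed to 1305 and 1693 TPM in SOX11f/f, 1339 and 1363 TPM in SOX11f/+ and 1134 and 1090 TPM in WT libraries. The 13 astrocyte markers had a median log2 fold change over WT of 0.41 in SOX11f/f and 0.35 in SOX11f/+ libraries. Among them Fgfr3 was nearly even, at 0.04 and 0.10. Of 11 oligodendrocyte lineage genes, the sums were 332 and 472 TPM in SOX11f/f and 351 and 352 TPM in SOX11f/+ libraries. In WT libraries they were 193 and 286 TPM. The median of this list was 0.62 in SOX11f/f over WT, with Mog at -0.63. The part of either list in the result was not tested.

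Inward rectifiers best known from neurons and secretory cells varied more within a genotype. Kcnj3, a G-protein-gated channel gene, had 19.1 and 19.7 TPM in SOX11f/f, 12.8 and 18.8 TPM in SOX11f/+ and 14.2 and 20.1 TPM in WT libraries. Kcnj11, the pore of ATP-sensitive channels, had 13.9 and 10.8 TPM in SOX11f/f, 10.1 and 6.03 TPM in SOX11f/+ and 16.9 and 9.50 TPM in WT libraries. For both genes the 2 WT libraries differed by more than any pair of genotype means. Kcnj4, a strong rectifier of forebrain neurons, had 7.91 and 13.03 TPM in SOX11f/f, 4.66 and 10.2 TPM in SOX11f/+ and 5.19 and 7.57 TPM in WT libraries, with both SOX11f/f libraries above WT, and it did not pass (limma adjusted p = 0.42).

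Two-pore genes were dominated by Kcnk1 and Kcnk2. Kcnk1, a weakly rectifying leak channel gene of neurons and glia (chromosome 8, 125995170 to 126030685), stood at 70.1 and 70.6 TPM in SOX11f/f, 70.5 and 69.6 TPM in SOX11f/+ and 116 and 90.7 TPM in WT libraries. The 4 floxed libraries lay within 1 TPM of each other and below both WT libraries. The WT libraries were further apart than the lower of them was from the floxed libraries. Kcnk1 did not pass in SOX11f/f (log2 fold change -0.54, SE 0.13, limma adjusted p = 0.12) or SOX11f/+ libraries (-0.54, SE 0.13, limma adjusted p = 0.23). Without WT replicate 1, Kcnk1 had log2 fold changes of -0.36 and -0.37, and without WT replicate 2 of -0.71 and -0.72. The summed level of 12 newborn neuron genes beside it was 5792 and 5389 TPM in SOX11f/f, 6647 and 6834 TPM in SOX11f/+ and 8102 and 8637 TPM in WT libraries, and that of 10 dentate granule lineage genes 620 and 638, 639 and 732, and 1359 and 929 TPM in the same order, with none at 0 in both libraries of a genotype. Neurod1 is in both lists. In SOX11f/f over WT the median log2 fold change was -0.48 for the newborn neuron and -0.79 for the granule lineage list. Within the granule lineage list Calb1, Dock10 and Wnt8b went the other way, at 0.32, 0.36 and 0.58. Lists of other cells that may hold Kcnk1 also went the other way, with medians of 0.29 for mature neuron and 0.41 for astrocyte genes. The part of these lists in the Kcnk1 result was not tested. Kcnk2, a stretch- and lipid-sensitive channel gene, was among the most even members, between 38.6 and 46.3 TPM in all libraries. Kcnk10, its close relative, had 15.1 and 12.8 TPM in SOX11f/f, 16.9 and 18.9 TPM in SOX11f/+ and 14.03 and 17.5 TPM in WT libraries. Kcnk9, an acid-sensitive leak channel gene, had 7.68 and 4.68 TPM in SOX11f/f, 6.49 and 4.63 TPM in SOX11f/+ and 6.59 and 4.49 TPM in WT libraries, with replicate 1 higher than replicate 2 in each genotype.

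In the calcium-activated class, Kcnn2, the small-conductance channel gene of the after-hyperpolarization, had 28.9 and 26.0 TPM in SOX11f/f, 24.99 and 26.1 TPM in SOX11f/+ and 36.5 and 28.4 TPM in WT libraries. Kcnma1, the pore of the large-conductance channel, had 21.4 and 22.4 TPM in SOX11f/f, 13.9 and 22.1 TPM in SOX11f/+ and 15.9 and 20.1 TPM in WT libraries. Neither passed in any comparison. The sodium-activated Kcnt2 had 12.7 and 13.3 TPM in SOX11f/f, 6.67 and 11.1 TPM in SOX11f/+ and 11.9 and 9.81 TPM in WT libraries, and Kcnt1 lay between 8.40 and 14.3 TPM. Kcnu1, known for its role in sperm (chromosome 8, 25849623 to 25937939), had 4.50 and 4.57 TPM in SOX11f/f, 6.20 and 5.29 TPM in SOX11f/+ and 7.77 and 7.12 TPM in WT libraries. The genotypes did not overlap, with SOX11f/f lowest, and the difference from WT did not pass (log2 fold change -0.61, SE 0.18, limma adjusted p = 0.17).

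Auxiliary genes included 2 of the 4 most abundant members. Kcnip2, a calcium sensor that binds Kcnd channels, had 74.0 and 102 TPM in SOX11f/f, 51.4 and 81.5 TPM in SOX11f/+ and 73.1 and 71.7 TPM in WT libraries. Kcnmb4, the neuronal beta subunit of the large-conductance channel, had 59.5 and 74.0 TPM in SOX11f/f, 57.4 and 72.9 TPM in SOX11f/+ and 78.6 and 68.7 TPM in WT libraries. Differences between libraries of a floxed genotype were larger than those between genotypes for both. Kcnip3, a relative of Kcnip2 also known as a transcriptional repressor (chromosome 2, 127456498 to 127522094), had 50.5 and 53.6 TPM in SOX11f/f, 50.5 and 54.5 TPM in SOX11f/+ and 35.2 and 43.0 TPM in WT libraries. Floxed libraries were all above WT, and Kcnip3 did not pass (SOX11f/f over WT 0.41 on the log2 scale, SE 0.13, limma adjusted p = 0.18; SOX11f/+ over WT 0.42, SE 0.13, limma adjusted p = 0.29). Without WT replicate 1 these values were 0.27 and 0.28. Kcnab2, a beta subunit of Kcna channels, lay between 34.2 and 64.2 TPM. Its relative Kcnab1 had 12.4 and 12.02 TPM in SOX11f/f, 7.69 and 9.09 TPM in SOX11f/+ and 6.77 and 9.74 TPM in WT libraries, with SOX11f/f above the rest (log2 fold change 0.53 over WT, SE 0.21, limma adjusted p = 0.24).

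Kcne2, a single-span subunit known from choroid plexus and stomach epithelium, was named after its values were seen because it differed most between libraries. It stood at 38.7 and 0.89 TPM in SOX11f/f, 64.5 and 0.30 TPM in SOX11f/+ and 0.22 and 0.05 TPM in WT libraries. The high libraries, replicate 1 of both floxed genotypes, were those with the most choroid plexus RNA, where Ttr, the secreted protein gene of that tissue, stood at 6421 and 11259 TPM. Kcne2 did not pass in SOX11f/f (log2 fold change 2.94, SE 1.96, limma adjusted p = 0.45) or SOX11f/+ libraries (3.03, SE 1.96, limma adjusted p = 0.51). The part of choroid plexus RNA in this difference was not tested.

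**Figure D2:**
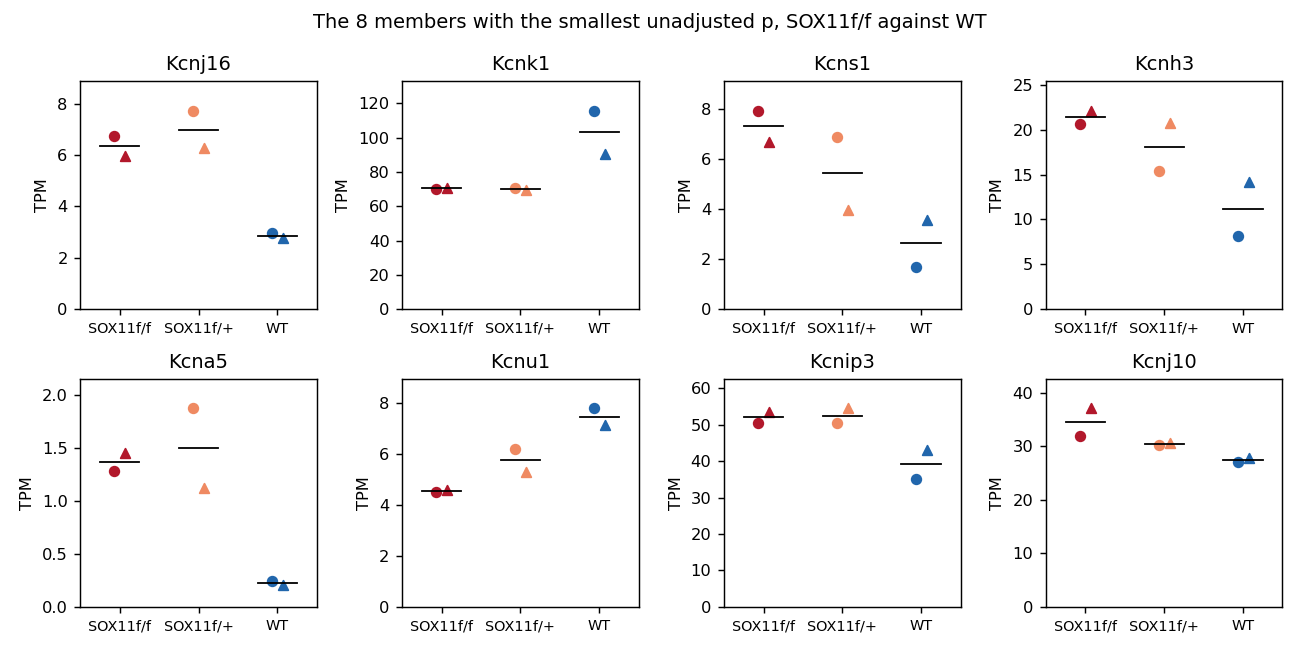
TPM in each library (circle, replicate 1; triangle, replicate 2) and genotype mean (line) of the 8 members with the smallest unadjusted limma p for SOX11f/f against WT. Kcnj16, Kcnk1, Kcns1, Kcnh3, Kcna5, Kcnu1, Kcnip3 and Kcnj10 separate SOX11f/f from WT libraries without overlap, as did 54.3% of all genes tested. The 8 were picked on this comparison, so their separation is largely given by the choice. None of them passed the adjusted threshold.

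Across the class, 0 of 70 members passed limma at an adjusted p of 0.05 for SOX11f/f against WT, where 0.0413% of all genes tested were called. At an unadjusted p under 0.05, 11 of 70 members (15.7%) differed, against a background of 18.1% of all genes. Of these, 7 were higher (background 8.35%) and 4 lower (background 9.8%). The libraries of these genotypes did not overlap for 38 of 70 members (54.3%), and the background was also 54.3%. By direction, 25 members were higher without overlap (35.7%, background 23.6%) and 13 lower (18.6%, background 30.7%). The median log2 fold change was 0.13 over the members and -0.04 over all genes tested. Neither the share of members at an unadjusted p under 0.05 nor the share without overlap, both directions together, was above the background.

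For SOX11f/+ against WT, 0 of 70 members passed, where 0.0344% of all genes were called with limma. At an unadjusted p under 0.05, 8 members (11.4%) differed, against a background of 14.1%, with 5 higher (background 6.42%) and 3 lower (background 7.63%). The libraries did not overlap for 26 members (37.1%, background 46%). Of these, 16 members were higher (22.9%, background 17.1%) and 10 lower (14.3%, background 28.9%). The members with the smallest unadjusted p were Kcnj16, Kcnk1, Kcna5, Kcnip3, Kcnh3, Kcnc1, Kcnf1 and Kcns1. The median log2 fold change was -0.06 over the members and -0.06 over all genes.

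SOX11f/f and SOX11f/+ libraries were then compared with each other. Again 0 of 70 members passed (background 0.0138%, limma), and 3 members (4.29%, background 2.05%) had an unadjusted p under 0.05, with 2 higher (background 1.14%) and 1 lower (background 0.902%). The libraries did not overlap for 21 members (30.0%, background 29.1%). Kcnmb2, an inactivating beta subunit of the large-conductance channel, had 3.96 and 2.55 TPM in SOX11f/f, 6.97 and 5.66 TPM in SOX11f/+ and 5.44 and 4.88 TPM in WT libraries (log2 fold change -0.80, SE 0.24, SOX11f/f over SOX11f/+). Kcnab1, described above, was higher in SOX11f/f libraries (0.50, SE 0.21). Next in order of unadjusted p came Kcnt2, Kcnh8, Kcnk10, Kcna1 and Kcnt1. Kcna1, an axonal channel gene, had 9.02 and 12.01 TPM in SOX11f/f, 4.33 and 9.47 TPM in SOX11f/+ and 7.93 and 8.28 TPM in WT libraries. The limma adjusted p of every member in this comparison was close to 1. For Kcna1 and Kcnt2 the lowest of all 6 libraries was SOX11f/+ replicate 1.

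**Figure D3:**
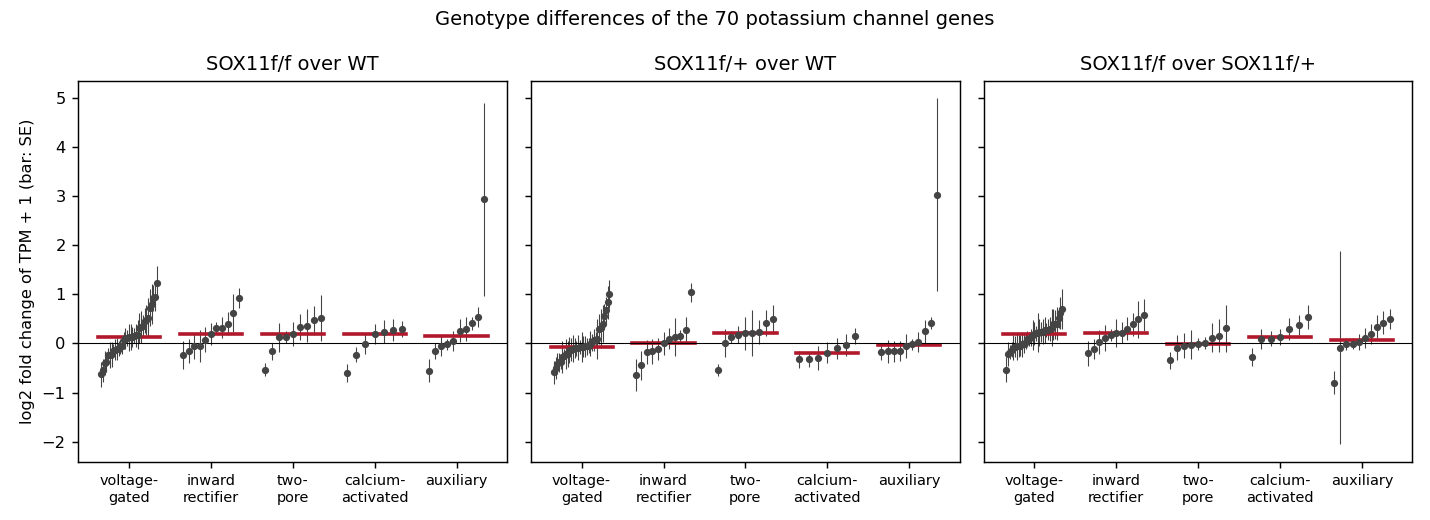
Log2 fold change of TPM + 1 with its limma SE for each of the 70 members, by class, in 3 comparisons; red lines are class medians. Most members lie within 1 unit of 0 in every comparison, and the point with the longest bar is Kcne2 at 2.94 and 3.03 over WT.

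The classes were compared by the summed level of their members. Voltage-gated genes summed to 427 ± 5.84 TPM in SOX11f/f, 379 ± 72.9 TPM in SOX11f/+ and 399 ± 30.7 TPM in WT libraries (SD, n = 2 each). Calcium-activated genes summed to 95.1 ± 2.30, 81.9 ± 8.65 and 93.4 ± 1.40 TPM in SOX11f/f, SOX11f/+ and WT libraries. For voltage-gated genes the genotype means differed by less than the SD of the SOX11f/+ libraries, and for calcium-activated genes the SOX11f/+ libraries lay lowest. Inward rectifiers summed to 111 ± 11.4 TPM in SOX11f/f, 93.0 ± 7.76 TPM in SOX11f/+ and 92.2 ± 0.255 TPM in WT libraries, a log2 ratio of 0.27 for SOX11f/f over WT that was 0.16 without SOX11f/f replicate 2. Two-pore genes summed to 146 ± 1.44 TPM in SOX11f/f, 148 ± 3.91 TPM in SOX11f/+ and 172 ± 13.8 TPM in WT libraries, with log2 ratios to WT of -0.24 and -0.21. The sum and the typical member pointed in opposite directions there. The median two-pore member had a log2 fold change over WT of 0.19 in SOX11f/f and 0.20 in SOX11f/+ libraries, with 7 and 8 of 9 members above 0, while Kcnk1, the most abundant, lay below 0. At a mean of at least 5 TPM the SOX11f/f median was -0.02. Auxiliary genes summed to 343 ± 21.6 TPM in SOX11f/f, 319 ± 3.83 TPM in SOX11f/+ and 290 ± 6.01 TPM in WT libraries, with log2 ratios to WT of 0.24 and 0.14. Without Kcne2 these ratios were 0.16 and -0.01, a setting chosen after seeing the data.

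Class medians were 0.12 for voltage-gated genes, 0.19 for inward rectifiers, 0.19 for calcium-activated and 0.15 for auxiliary genes in SOX11f/f over WT, beside -0.04 over all genes. In SOX11f/+ over WT they were -0.07, 0.01, -0.18 and -0.03, beside -0.06 over all genes. Leaving out SOX11f/+ replicate 1 turned the voltage-gated and auxiliary medians to 0.11 and 0.13, and leaving out WT replicate 2 turned the auxiliary one to 0.07, so these directions rest on single libraries. The inward rectifier median was -0.24 without SOX11f/+ replicate 2 and -0.06 without WT replicate 1. Leaving out SOX11f/f replicate 2 turned the voltage-gated, calcium-activated and auxiliary medians in SOX11f/f to -0.0076, -0.0191 and -0.019.

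**Figure D4:**
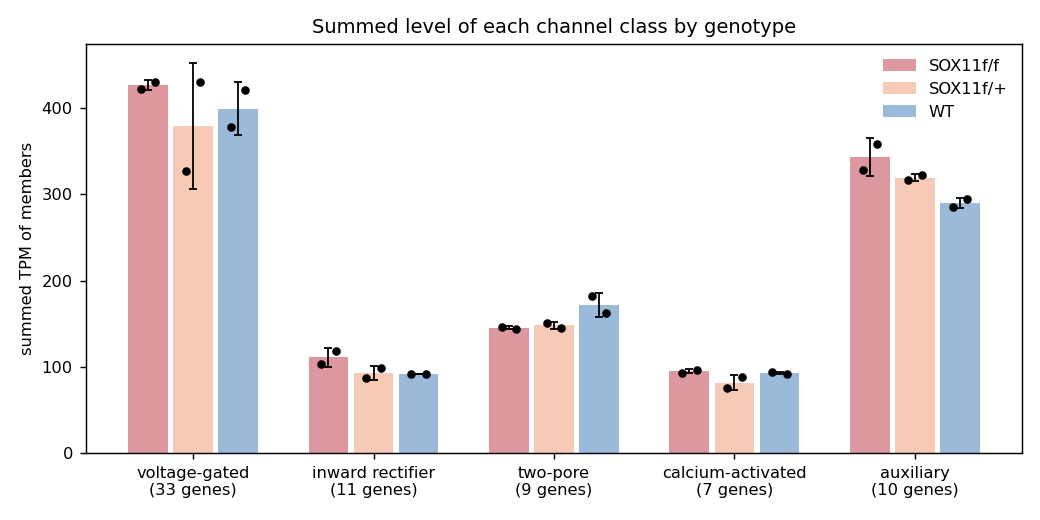
Summed TPM of the members of each class in SOX11f/f, SOX11f/+ and WT libraries. Bars are means, error bars SD over 2 libraries and points single libraries. The two-pore bars of both floxed genotypes are lower than WT, and the SOX11f/+ points of the voltage-gated class lie at 327 and 430 TPM.

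Many members also differed between libraries of the same genotype. In SOX11f/+ tissue 50 of 70 members (71.4%) were higher in replicate 2 than in replicate 1, against 39.8% of all genes tested, and 27 of 33 voltage-gated members were among them. In SOX11f/f libraries 45 of 70 members (64.3%, all genes 50.8%) and in WT libraries 43 of 70 (61.4%, all genes 30.0%) were higher in replicate 2. The summed level of 14 mature neuron genes was likewise higher in the library numbered 2 of each genotype, at 2492 and 3310 TPM in SOX11f/f, 1678 and 2743 TPM in SOX11f/+ and 1859 and 2668 TPM in WT libraries, and its part in these differences was not tested. Kcng2, a silent subunit chosen here after its values were seen, shows the pattern, at 19.3 and 20.9 TPM in SOX11f/f, 7.30 and 18.9 TPM in SOX11f/+ and 8.77 and 13.9 TPM in WT libraries. Kcnk4, a two-pore gene chosen in the same way, had 2.21 and 4 TPM in SOX11f/f, 1.35 and 3.47 TPM in SOX11f/+ and 0.95 and 3 TPM in WT libraries. Kcnip1, another calcium sensor of Kcnd channels, was the most even member, between 31.4 and 35.3 TPM in all libraries.

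**Figure D5:**
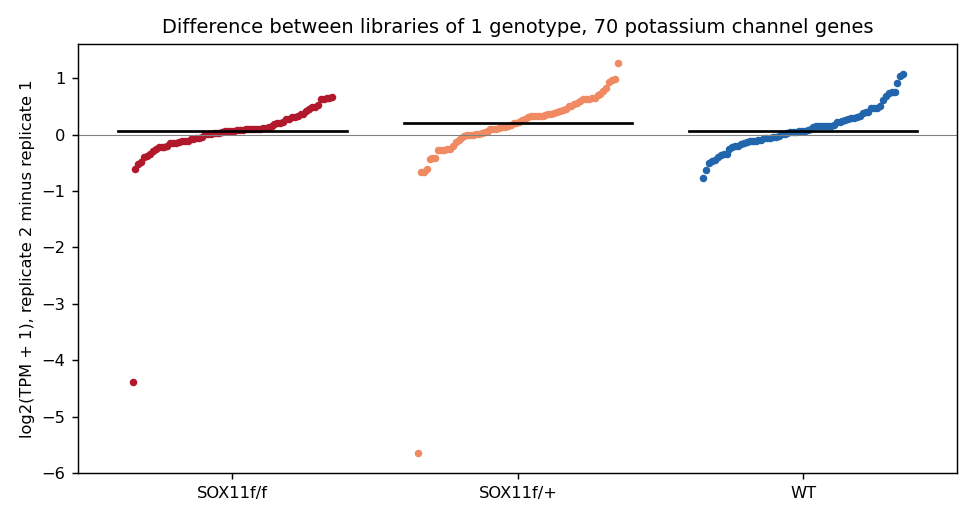
Difference of log2(TPM + 1) between replicate 2 and replicate 1 of each genotype for the 70 members, sorted within a genotype, with the median as a line. Medians lie at 0.07 in SOX11f/f, 0.22 in SOX11f/+ and 0.07 in WT, and the far negative point in SOX11f/f and in SOX11f/+ is Kcne2.

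Partners of the channels were read from a list of 51 genes for accessory subunits, anchors, pacemaker channels, the sodium-potassium pump and chloride cotransporters with their kinases. Of these 48 were tested and 0 passed limma in any of the 3 comparisons. At an unadjusted p under 0.05, 8 were higher (16.7%, background 8.35%) and 4 lower (8.33%, background 9.8%) in SOX11f/f than in WT. In SOX11f/+ against WT, 1 was higher (2.08%, background 6.42%) and 4 lower (8.33%, background 7.63%), and 1 was higher in SOX11f/f than in SOX11f/+ (2.08%, background 1.14%). Dlg4, the postsynaptic anchor gene, had 242 and 247 TPM in SOX11f/f, 180.5 and 226 TPM in SOX11f/+ and 155 and 187 TPM in WT libraries (log2 fold change 0.52, SE 0.14, limma adjusted p = 0.15, SOX11f/f over WT). Hcn4, a pacemaker channel gene, was lower, at 10.4 and 8.31 TPM in SOX11f/f, 10.95 and 10.2 TPM in SOX11f/+ and 15.5 and 13.3 TPM in WT libraries (log2 fold change -0.58, SE 0.17, limma adjusted p = 0.17). Fxyd1, a regulator of the pump, had 40.6 and 31.2 TPM in SOX11f/f, 85.9 and 16.8 TPM in SOX11f/+ and 7.44 and 8.58 TPM in WT libraries (log2 fold change 2.02, SE 0.65, limma adjusted p = 0.19). Leaving out SOX11f/+ replicate 1 or replicate 2 kept this fold change at 2.02 and changed only its SE, to 0.18 and 0.17. That step left 1 SOX11f/+ library and took the SOX11f/+ spread out of the fit. With 2 libraries of each genotype compared, the limma adjusted p of Fxyd1 ran from 0.0044, with SOX11f/+ left out, to 0.31. For SOX11f/+ over WT the Fxyd1 log2 fold change of 2.13 was 3.27 without SOX11f/+ replicate 2 and 0.98 without SOX11f/+ replicate 1. The highest Fxyd1 level was in SOX11f/+ replicate 1, the library with the most choroid plexus RNA, whose part in the result was not tested.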

How the data were processed

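The deposited table holds TPM for 6 libraries, 2 per genotype. Per the labels' design text, the authors aligned reads to mm10 with TopHat 2.0.11 and used Cufflinks 2.2.1 with RefSeq annotation, while the submitters' processing notes list RSEM and FastQC beside GRCm38 and mm10. How reads matching several genes were handled is not given in the sources used here. TPM of a library sum to 1000000, so an abundant transcript lowers all others, and depth is unknown. From these values log2(TPM + 1) was computed, a scale that understates changes of low genes. The 14518 genes whose mean over libraries reached 1 TPM entered limma 3.58.1 in R 4.3.3 (eBayes with trend, genotype as the factor, residual df 3), with Benjamini-Hochberg adjustment over all of them at 0.05. The SE printed is that of limma. With 2 libraries against 2, the smallest two-sided p of an exact permutation test is 0.33. Positions come from GENCODE vM21, matched by identifier for all 70 members. Named members were the 8 with the smallest unadjusted p in each comparison and the 4 of highest mean in each class, with exceptions stated; some items so selected are not reported here. Members, classes and lists were chosen with earlier results of these data known. Pseudocounts, filters, scaling, replicate block and left-out libraries were varied.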

Additional observations from a re-analysis of the deposited data

How the results depend on the processing

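The count of 0 members called for SOX11f/f against WT stayed at 0 in the 7 alternatives that kept 2 libraries of each genotype compared. For the other comparisons the count was also 0 in these 7. For alternatives that left 1 library in a genotype, no calls are counted here. Replicate numbers gave deviations correlated across genes at 0.35 (SOX11f/f with SOX11f/+), -0.09 (SOX11f/f with WT) and 0.21 (SOX11f/+ with WT). These values differ in sign and do not settle a pairing, and replicate numbers were not taken to pair libraries in the main fit. Among the members, however, 27 of 70 (38.6%) were higher in replicate 2 in all genotypes, against 11.4% of all genes tested. With the replicate block 0 members were called in each comparison. The smallest limma adjusted p for SOX11f/f against WT was then 0.066, for Kcnh3. The partner genes called for SOX11f/f against WT were 1 with only the 2 genotypes compared (Fxyd1), 1 with the replicate block (Fxyd7), 4 without replicate 1 of both floxed genotypes (Aqp4, Cntnap1 and Fxyd1 among them), and 0 to 1 without single libraries. For SOX11f/+ against WT they were 0 to 1 without single libraries.

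Log2 ratios of summed TPM moved as follows when single libraries were left out: SOX11f/f over WT from -0.32 to -0.16 for two-pore genes, 0.16 to 0.37 for inward rectifiers and 0.18 to 0.31 for auxiliary genes, and SOX11f/+ over WT from -0.29 to 0.11 for voltage-gated, -0.29 to -0.13 for two-pore and -0.30 to -0.085 for calcium-activated genes. Without replicate 1 of both floxed genotypes the ratio was 0.31 for auxiliary genes (SOX11f/f), 0.11 for voltage-gated and -0.085 for calcium-activated genes (SOX11f/+). Median-of-ratios rescaling gave 0.31 (SOX11f/f) and 0.22 (SOX11f/+) for auxiliary and -0.13 (SOX11f/+) for two-pore genes. Counting BK beta subunits as calcium-activated gave auxiliary ratios of 0.37 and 0.23, and leaving out Kcne2 0.16 and -0.014.

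Class medians over WT without single libraries ran, in SOX11f/f, from 0.16 to 0.34 for inward rectifiers, 0.080 to 0.29 for two-pore, -0.0191 to 0.27 for calcium-activated and -0.019 to 0.31 for auxiliary genes, and in SOX11f/+ from -0.22 to 0.11 for voltage-gated genes, -0.24 to 0.15 for inward rectifiers, 0.13 to 0.33 for two-pore, -0.29 to -0.052 for calcium-activated and -0.15 to 0.13 for auxiliary genes. Without replicate 1 of both floxed genotypes they were 0.34, 0.080, 0.27 and 0.31 (SOX11f/f, inward rectifier, two-pore, calcium-activated, auxiliary) and 0.11, 0.15, -0.077 and 0.13 (SOX11f/+, voltage-gated, inward rectifier, calcium-activated, auxiliary). At a mean of at least 5 TPM they were 0.32, -0.020 and 0.26 (SOX11f/f, inward rectifier, two-pore, auxiliary) and 0.13 and 0.068 (SOX11f/+, inward rectifier, two-pore). With a pseudocount of 0.1 the two-pore medians were 0.27 and 0.28, and with rescaling 0.23 and 0.26. The cause of these shifts was not tested. The 24 fold changes followed gene by gene were those of the 8 members with the smallest unadjusted p in each comparison. None changed sign in any alternative, but that was largely given by the choice, and several alternatives leave a fold change as it is. Leaving out 1 library moved 11 by over 1.5 times. Beside those in the report, these were SOX11f/+ over WT for Kcns1 (0.84, and 0.50 without SOX11f/+ replicate 1 or 0.46 without WT replicate 1) and Kcnf1 (-0.59, and -0.34 without WT replicate 1), and SOX11f/f over SOX11f/+ for Kcnt1 (0.38, and 0.17 without SOX11f/f replicate 2 or 0.59 without SOX11f/f replicate 1), Kcna1 (0.61) and Kcnt2 (0.54), at 0.125 and 0.21 without SOX11f/+ replicate 1 and 1.10 and 0.87 without SOX11f/+ replicate 2, among others.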
